A study of Mus musculus with 12 samples.

Results

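The genes described here are 53 genes of the G2/M transition and mitosis, Foxm1 among them, out of the 52636 genes listed for each of 2 cultured mouse lung cell types. They were taken from a fixed list of symbols, from mitotic entry to cytokinesis. No cutoff on a measured value was used, but the list was chosen with earlier results of these data known. Every symbol matched a single row in both tables, and all 53 genes passed the minimum of 1 TPM (a transcript level corrected for length and scaled to a fixed total of 1000000 per library) in every comparison. The study asked what loss of Krüppel-like factor 4 (KLF4), a zinc finger transcription factor, does in airway smooth muscle cells (SMCs) and in lung PDGFR-β+ cells. Bulk RNA-seq was made from 12 libraries, 3 for each of 4 groups, and the study describes its replicates as independent experiments.

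SMCs were wild-type C57BL/6 cells bought as a culture (CellBiologics C57-6082, listed as tracheal in the source field and as lung airway cells in the titles, with no age given). PDGFR-β+ cells came from lungs of C57BL/6 mice at 12 weeks of age. By the study's methods they were Zs+ cells sorted from tamoxifen-induced Pdgfrb-CreERT2, ROSA26R(Zs/+) mice and then cultured, so that every PDGFR-β+ library of either treatment carries the reporter and the Cre allele, whose activity follows the Pdgfrb promoter and marks both fibroblasts and pericytes. Each cell type received scrambled RNA (Scr) or siRNA against Klf4 (siKlf4), at 50 nM for 6 h in the study's protocol, followed by 72 h in SMC medium. The Klf4 KD genotype in the labels is this knockdown.

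Cells approaching division raise a shared set of transcripts late in the cycle. In resting cells the DREAM complex, built on the MuvB core, holds these promoters silent through a cell cycle homology region (CHR). In cycling cells MuvB binds B-MYB (Mybl2) and then the forkhead factor FOXM1, which switch the same promoters on. The products build and regulate the mitotic apparatus, from cyclin B and CDK1 at entry, through spindle, kinetochore and checkpoint proteins, to anaphase and the splitting of the cell body. Because such transcripts peak within each cycle, their level in a culture follows how many cells are dividing as well as how much RNA each such cell holds, and bulk libraries cannot tell these apart.

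The members lie on 17 chromosomes, 11 of them on chromosome 2. Foxm1 is at chr6:128362967-128376146 on the plus strand of GRCm38 (GENCODE annotation), Plk1 at chr7:122159439-122169873 on the plus strand, Pttg1 at chr11:43420250-43426251 on the minus strand and Gtse1 at chr15:85859745-85876573 on the plus strand. In this annotation 29 of the 53 overlap another gene, as Foxm1 does with Tex52 and Gm44596 on its own strand and Ccna2 with Exosc9 on the other strand. By the study's methods the libraries kept strand (dUTP marking). The sources used here do not say whether quantification used it, so for pairs on opposite strands it is not known whether reads were shared, and for pairs on 1 strand they may have been.

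RefSeq promoter windows of GRCm38.p6, from 250 bases before to 50 bases after the transcription start, were present for 44 members. The CHR was searched as TTTGAA or TTTAAA and the CCAAT box as CCAAT, on both strands. A CHR was found for 34 of 44 members (77.3%), against 27.6% of all 32851 windows, and a CCAAT box for 32 of 44 (72.7%), against 37.4%. Both were found for 29 of 44 (65.9%), against 10.7% of all windows. The forkhead letters TAAACA, by contrast, were in 15.9% of the members and 13.4% of all windows, and TGTTTAC in 4.55% and 3.65%. The E2F letters TTTGGCG were in 2.27% of the members and 1.56% of all windows, and TTTCCCG in 6.82% and 3.39%. For KLF letters, CACCC was in 47.7% of the members and 57.5% of all windows, and GGGTGTG in 4.55% and 7.95%. These matches are descriptions of letters in a window and not measured binding.

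The following stretches run from 100 bases before to 30 bases after the start, with the CHR and CCAAT letters, or their reverse complement, in capitals. Plk1, the member with the largest log2 fold change in SMCs, and Pttg1, the member with the smallest, are shown with Ccnb1, Cdc20 and Gtse1, which were added after their values and letters were seen, as examples of how the shared letters lie near the start. In SMCs 32 of the 34 members with a CHR rose, as did 7 of the 10 without one, against 15.6% of all genes tested. Pttg1 is counted among those without one. The shares over all genes with and without a CHR were not worked out. A link between the CHR and the rise was not tested.
Plk1 (chr7:122159335-122159464, plus strand): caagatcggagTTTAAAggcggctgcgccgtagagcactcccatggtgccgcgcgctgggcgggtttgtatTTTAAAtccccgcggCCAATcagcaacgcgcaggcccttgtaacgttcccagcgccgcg
Ccnb1 (chr13:100786457-100786586, minus strand): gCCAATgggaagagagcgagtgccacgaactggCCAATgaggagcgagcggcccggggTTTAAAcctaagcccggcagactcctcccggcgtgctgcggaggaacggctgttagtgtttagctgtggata
Cdc20 (chr4:118437314-118437443, minus strand): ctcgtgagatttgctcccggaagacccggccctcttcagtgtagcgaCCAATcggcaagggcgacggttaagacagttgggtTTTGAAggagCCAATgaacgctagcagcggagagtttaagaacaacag
Gtse1 (chr15:85859607-85859736, plus strand): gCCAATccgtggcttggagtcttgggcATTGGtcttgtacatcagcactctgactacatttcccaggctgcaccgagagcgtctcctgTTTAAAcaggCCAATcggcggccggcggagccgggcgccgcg
Pttg1 (chr11:43425952-43426081, minus strand): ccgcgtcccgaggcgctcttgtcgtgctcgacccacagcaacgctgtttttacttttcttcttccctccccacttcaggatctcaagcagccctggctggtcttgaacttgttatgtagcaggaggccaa
The Plk1 stretch holds TTTAAA at 2 places with a CCAAT box just downstream, Ccnb1 and Gtse1 hold 1 TTTAAA each and Cdc20 holds 1 TTTGAA, in each case with at least 1 CCAAT box. The Pttg1 stretch holds neither motif. GENCODE places the 5′ end of Pttg1 at 43426251, upstream of this stretch, so the letters before that position were not searched here.

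Klf4 itself was measured first. Its TPM was 96.3, 95.0 and 89.6 in Scr SMCs and 16.3, 18.8 and 26.5 in siKlf4 SMCs, and 143.8, 146.1 and 134.5 in Scr PDGFR-β+ cells and 12.3, 13.8 and 12.8 in siKlf4 PDGFR-β+ cells, so that 21.9% and 9.16% of the Scr mean remained. For SMCs, values are given in the order replicate 2, replicate 3 and the library whose column carries no number, and for PDGFR-β+ cells in the order of replicates 1 to 3. The 2 SMC libraries without a number lay apart from the 4 numbered ones on the second principal component (16.5% of the variance), and counts in SMCs are therefore also given without them. Each library summed to 1000000 TPM, which keeps no depth, and between 20590 and 21780 genes were above 0. Smooth muscle and PDGFR-β+ mesenchyme markers were present in both cultures: Acta2 was at 1031 to 3072 TPM in SMCs and at 3454 to 4594 TPM in PDGFR-β+ cells, and Pdgfrb at 175 to 216 and 304 to 474 TPM, while Myocd, which drives the smooth muscle programme, was at 0.213 TPM or less in all libraries. The summed TPM of 5 macrophage markers was 4.44 to 7.19 in SMCs and 18.7 to 29.9 in PDGFR-β+ cells, where Lyz2 and Cd68 made up most of it and Ptprc stayed at 0.266 or less. The sum of 4 endothelial markers was 1.28 to 3.87 in SMCs and 14.1 to 18.4 in PDGFR-β+ cells, most of it Kdr, and 5 epithelial markers summed to 0.325 or less. The part of such cells in the values of the mitotic genes was not tested.

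In SMCs, the mitotic genes rose together with siKlf4. Of the 53 genes, 47 were higher and 0 lower (limma, adjusted p under 0.05), against 15.6% of all 13709 genes tested that were higher and 12.9% that were lower. At an unadjusted p under 0.05, 1 member, Pttg1, was lower. Values with ± are log2 fold changes, siKlf4 minus Scr on log2(TPM + 1), with their standard error. The median log2 fold change over the members was 0.80, against 0.02 over all genes tested, and the median member rose 1.83-fold. The siKlf4 and Scr libraries did not overlap for 48 members that were higher, against 25.6% of all genes, and for 1 that was lower, against 21.5%. Within the 4 numbered libraries 44 members were higher, against 15.6% of all genes tested, and 1, Pttg1, lower. The median there was 0.70, against 0.03 over all genes. In the unnumbered pair, 1 library against 1, 52 members were higher by value, with a median of 0.96. The share over all genes was not worked out for that pair. Smooth muscle markers moved in the same libraries: 6 of the 7 tested rose, and the sum of the 8 was 1495 to 2284 TPM in Scr SMCs and 3411 to 4174 TPM in siKlf4 SMCs, while Des did not pass (-0.36, adjusted p = 0.0884). The 7 PDGFR-β+ mesenchyme markers summed to 3427 to 3550 TPM with Scr and 2533 to 2636 TPM with siKlf4, with 2 lower (Col3a1 and Cspg4) and 0 higher. The endothelial sum was 1.28 to 2.51 and 3.37 to 3.87 TPM, and Kdr, the 1 endothelial marker tested, rose. The part of these marker changes in the mitotic values was not tested.

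In PDGFR-β+ cells, 19 of the genes that rose in SMCs fell with siKlf4. Of the 53, 22 were lower and 2 higher, against 15.3% and 25.3% of all 13694 genes tested, and 29 did not pass the test. In these cells the median log2 fold change was -0.36, against 0.10 over all genes, and 28 members had siKlf4 libraries entirely below the Scr libraries, against 19.8% of all genes, while 2 had them entirely above, against 33.9%. The number of members that were lower depended on scaling, on the filter and on single libraries. It was 34 after median-ratio scaling, which moved the median of all genes from 0.10 to -0.0032 and turned their split from 3461 higher and 2098 lower into 2639 higher and 2977 lower, it was 14 without a filter on low values, and it was 13 without siKlf4 replicate 3. Macrophage markers moved in the same libraries, from 28.6 to 29.9 TPM summed in Scr to 18.7 to 22.8 TPM in siKlf4 cells, where 2 of the 3 tested fell. The smooth muscle sum went from 5551 to 6408 TPM to 4708 to 5003 TPM, but its members were mixed: Acta2, Tagln and Des fell and Myh11, Smtn and Lmod1 rose. Of the 7 mesenchyme markers 3 fell and 0 rose, with sums of 2858 to 3545 TPM in Scr and 2070 to 2897 TPM in siKlf4 cells that overlapped. The part of these changes in the mitotic values was not tested.

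**Figure D1:**
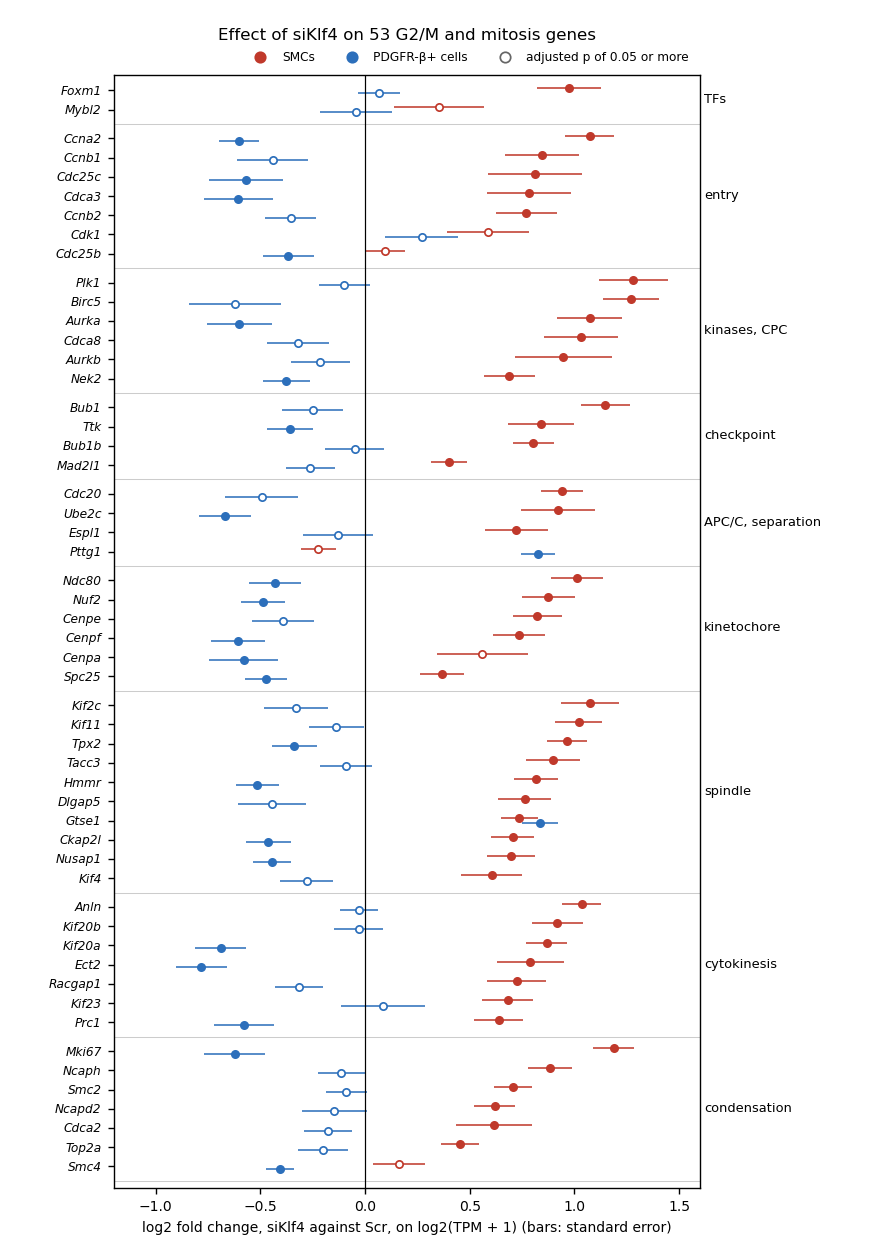
Log2 fold change of siKlf4 against Scr on log2(TPM + 1) for each of the 53 genes (rows, by role) in SMCs (red) and PDGFR-β+ cells (blue), with bars of 1 standard error, from 3 libraries against 3; filled points passed the test at an adjusted p under 0.05. All SMC points but that of Pttg1 lie right of 0, and in PDGFR-β+ cells 48 of 53 points lie left of 0.

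Among the transcription factors, Foxm1 was at 8.40, 10.2 and 6.54 TPM in Scr SMCs and 16.5, 16.5 and 18.6 TPM in siKlf4 SMCs. The groups did not overlap (log2 fold change 0.97 ± 0.15 (SE), adjusted p = 0.00512), although the exact permutation p was 0.1, the smallest that 3 libraries against 3 allow. Foxm1 in PDGFR-β+ cells was at 17.1, 20.8 and 20.2 TPM under Scr and 20.4, 21.4 and 19.00 TPM under siKlf4, values that overlapped (0.06 ± 0.10, adjusted p = 0.639; exact permutation p = 0.6) and whose sign turned to -0.04 after median-ratio or quantile scaling. Mybl2 was at 2.33, 3.86 and 2.77 TPM in Scr SMCs and 5.05, 2.92 and 4.39 TPM in siKlf4 SMCs, with overlap (0.36 ± 0.21, adjusted p = 0.253). Mybl2 in PDGFR-β+ cells was at 8.46, 6.69 and 6.10 TPM under Scr and 8.52, 6.58 and 5.54 TPM under siKlf4, and these groups overlapped too (-0.04 ± 0.17, adjusted p = 0.862). Foxm1 thus rose in SMCs alone among these tests, and Mybl2, among the lowest in level of the set, passed in neither cell type. The study, testing counts, listed Mybl2 among the most upregulated factors in SMCs that are predicted to bind the chemokine gene Ccl2. The log2(TPM + 1) scale used here understates changes of low genes. With other settings, a pseudocount of 0.1 among them, Mybl2 in SMCs passed in 0 of 9 limma fits. Its log2 fold change there was 0.28 to 0.45, with adjusted p of 0.171 or more. The cause of the difference from the study was not tested.

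Mitotic entry genes include the cyclins that switch on CDK1 and the CDC25 phosphatases that remove its inhibitory phosphates. In SMCs 5 of 7 rose, against 15.6% of all genes tested, and in PDGFR-β+ cells 4 of 7 fell, against 15.3%. Of these falls only that of Ccna2 held when any single library was left out. The rises of Cdc25c and Cdca3 were each lost without at least 1 library. Ccna2 was at 12.7, 11.4 and 11.1 TPM in Scr SMCs and 23.6, 23.9 and 30.03 TPM in siKlf4 SMCs, a rise in cyclin A2 of 1.07 ± 0.12 (adjusted p = 0.00171). Ccna2 in PDGFR-β+ cells was at 31.4, 35.3 and 28.4 TPM under Scr and 20.2, 19.9 and 21.3 TPM under siKlf4, a fall with no overlap (-0.60 ± 0.10, adjusted p = 0.00244). The B cyclins, partners of CDK1 at entry, rose in SMCs by 0.85 ± 0.17 for Ccnb1 and 0.77 ± 0.15 for Ccnb2, while their log2 fold changes of -0.44 ± 0.17 and -0.36 ± 0.12 in PDGFR-β+ cells missed the threshold (adjusted p = 0.0760 and 0.0511). Cdk1, the kinase itself, passed in neither cell type. Cdk1 was at 17.6, 17.8 and 12.96 TPM in Scr SMCs and 24.9, 18.96 and 31.1 TPM in siKlf4 SMCs, without overlap but past no threshold (0.59 ± 0.20, adjusted p = 0.0625). Cdk1 in PDGFR-β+ cells was at 29.7, 38.5 and 28.7 TPM under Scr and 48.3, 38.97 and 31.1 TPM under siKlf4, with overlap (0.27 ± 0.17, adjusted p = 0.254). The 2 phosphatases differed from each other in SMCs by value. Cdc25b was at 10.1, 10.9 and 10.8 TPM in Scr SMCs and 10.7, 12.1 and 11.4 TPM in siKlf4 SMCs, the smallest positive log2 fold change of the set (0.10 ± 0.09, adjusted p = 0.451), and in PDGFR-β+ cells at 19.5, 21.1 and 15.4 TPM under Scr and 13.9, 14.6 and 13.9 TPM under siKlf4 (-0.37 ± 0.12, adjusted p = 0.0469). Cdc25c was at 3.51, 3.95 and 1.83 TPM in Scr SMCs and 6.95, 5.62 and 5.52 TPM in siKlf4 SMCs (0.81 ± 0.22, adjusted p = 0.0344), and in PDGFR-β+ cells at 6.35, 10.1 and 6.25 TPM under Scr and 4.33, 4.99 and 4.66 TPM under siKlf4 (-0.57 ± 0.18, adjusted p = 0.0374; -0.37 without Scr replicate 2). Cdca3, which promotes loss of the CDK1 inhibitor WEE1, rose in SMCs (0.78 ± 0.20). Cdca3 in PDGFR-β+ cells was at 19.4, 22.5 and 16.2 TPM under Scr and 14.9, 12.3 and 9.99 TPM under siKlf4 (-0.605 ± 0.17, adjusted p = 0.0232). By value this was the largest fall of this group, with Ccna2 close to it at -0.602.

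The mitotic kinases are grouped with the chromosomal passenger complex, in which Aurora B works with survivin (Birc5) and borealin (Cdca8). They had the highest median log2 fold change of the 9 role groups in SMCs, 1.05. All 6 rose there, against 15.6% of all genes tested. Plk1 was at 11.4, 12.01 and 7.54 TPM in Scr SMCs and 25.8, 27.9 and 24.6 TPM in siKlf4 SMCs, the largest log2 fold change of the 53 genes in SMCs (1.28 ± 0.17, adjusted p = 0.00294). Its product acts from centrosome maturation to cytokinesis. Plk1 in PDGFR-β+ cells was at 32.3, 40.1 and 28.7 TPM under Scr and 32.2, 30.1 and 31.1 TPM under siKlf4, with overlap (-0.10 ± 0.12, adjusted p = 0.545). Birc5 was at 12.6, 17.01 and 14.5 TPM in Scr SMCs and 41.8, 33.4 and 35.1 TPM in siKlf4 SMCs (1.27 ± 0.13, adjusted p = 0.00158). Birc5 in PDGFR-β+ cells was at 36.1, 61.9 and 35.4 TPM under Scr and 23.2, 30.8 and 29.4 TPM under siKlf4, without overlap but past no threshold (-0.62 ± 0.22, adjusted p = 0.0561), where Scr replicate 2 was above the other Scr libraries. Aurora A, the centrosome kinase encoded by Aurka, moved in opposite directions. Aurka was at 12.6, 13.3 and 8.76 TPM in Scr SMCs and 26.5, 23.8 and 25.01 TPM in siKlf4 SMCs (1.07 ± 0.15), and in PDGFR-β+ cells at 30.1, 36.2 and 23.7 TPM under Scr and 19.4, 21.2 and 17.1 TPM under siKlf4 (-0.60 ± 0.16, adjusted p = 0.0187). Nek2 was at 5.87, 6.83 and 5.09 TPM in Scr SMCs and 10.8, 9.62 and 10.04 TPM in siKlf4 SMCs, the smallest rise of this group (0.69 ± 0.12), and in PDGFR-β+ cells at 14.8, 15.7 and 12.2 TPM under Scr and 11.01, 10.9 and 10.2 TPM under siKlf4, a fall in this kinase of centrosome separation (-0.38 ± 0.11, adjusted p = 0.0309). Aurkb rose in SMCs by 0.95 ± 0.23 and Cdca8 by 1.03 ± 0.18, and in PDGFR-β+ cells their log2 fold changes of -0.21 ± 0.14 and -0.32 ± 0.15 missed the threshold (adjusted p = 0.258 and 0.119).

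The spindle checkpoint holds anaphase until every chromosome is attached. All 4 of its genes rose in SMCs, against 15.6% of all genes tested. In PDGFR-β+ cells 1 of 4 fell, against 15.3% of all genes, too few to be read as a trait of this group. Bub1 was at 5.15, 4.53 and 4.98 TPM in Scr SMCs and 10.7, 13.6 and 11.9 TPM in siKlf4 SMCs, the largest rise of the group (1.15 ± 0.12, adjusted p = 0.00147). Bub1 in PDGFR-β+ cells was at 17.6, 22.98 and 15.97 TPM under Scr and 14.97, 17.4 and 14.3 TPM under siKlf4, with overlap (-0.25 ± 0.14, adjusted p = 0.203). Mad2l1 was at 14.6, 14.4 and 15.5 TPM in Scr SMCs and 21.01, 18.5 and 20.3 TPM in siKlf4 SMCs, the smallest rise (0.40 ± 0.09, adjusted p = 0.0148), and in PDGFR-β+ cells at 30.7, 37.4 and 31.8 TPM under Scr and 24.2, 31.1 and 27.7 TPM under siKlf4 (-0.26 ± 0.12, adjusted p = 0.113). The kinase gene Ttk was the one that fell in PDGFR-β+ cells. Ttk was at 3.97, 4.29 and 2.85 TPM in Scr SMCs and 8.26, 6.50 and 7.38 TPM in siKlf4 SMCs (0.84 ± 0.16), and in PDGFR-β+ cells at 7.60, 9.01 and 8.13 TPM under Scr and 5.79, 6.74 and 6.08 TPM under siKlf4 (-0.36 ± 0.11, adjusted p = 0.0335). Bub1b was at 11.1, 10.1 and 9.81 TPM in Scr SMCs and 20.2, 17.1 and 19.1 TPM in siKlf4 SMCs (0.80 ± 0.10), and in PDGFR-β+ cells at 17.2, 20.6 and 13.9 TPM under Scr and 16.5, 17.5 and 15.3 TPM under siKlf4, groups that overlapped (-0.05 ± 0.14, adjusted p = 0.807). The SMC groups were thus apart for all 4 genes, against 25.6% of all genes tested that were higher without overlap. The PDGFR-β+ groups were apart for Ttk alone, against 19.8% of all genes that were lower without overlap. The fall of Ttk passed in 2 of the 6 fits that left out a library.

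The 4 genes of the next group act at the switch to anaphase, when the anaphase-promoting complex destroys securin and frees separase. The activator Cdc20 and the conjugating enzyme Ube2c rose in SMCs. Cdc20 was at 23.9, 24.4 and 19.3 TPM in Scr SMCs and 43.9, 44.1 and 43.9 TPM in siKlf4 SMCs (0.94 ± 0.10, adjusted p = 0.00166), and in PDGFR-β+ cells at 45.2, 61.2 and 36.1 TPM under Scr and 32.1, 34.7 and 31.4 TPM under siKlf4, without overlap but past no threshold (-0.49 ± 0.17, adjusted p = 0.0561). Ube2c was at 29.6, 34.6 and 20.6 TPM in Scr SMCs and 56.4, 49.1 and 54.7 TPM in siKlf4 SMCs (0.92 ± 0.18), and in PDGFR-β+ cells at 70.8, 83.8 and 60.5 TPM under Scr and 44.3, 47.9 and 41.1 TPM under siKlf4, a fall (-0.67 ± 0.12, adjusted p = 0.00465). Pttg1, which encodes securin, stood apart from them. Pttg1 was at 34.8, 34.5 and 35.8 TPM in Scr SMCs and 28.4, 28.4 and 33.02 TPM in siKlf4 SMCs: every siKlf4 library was below every Scr library, but the difference missed the threshold (-0.22 ± 0.08, adjusted p = 0.0890), which it passed within the 4 numbered libraries (-0.28, adjusted p = 0.0314). Pttg1 in PDGFR-β+ cells was at 33.00, 35.2 and 37.05 TPM under Scr and 58.6, 64.7 and 65.6 TPM under siKlf4, a clear separation and one of only 2 rises among the 53 genes in these cells (0.83 ± 0.08, adjusted p = 0.000269). Separase (Espl1), the protease that securin holds, rose in SMCs by 0.72 ± 0.15 and had a log2 fold change of -0.13 ± 0.17 in PDGFR-β+ cells (adjusted p = 0.565).

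Kinetochore genes had the lowest median log2 fold change of the role groups in PDGFR-β+ cells, -0.48. There 5 of 6 fell, against 15.3% of all genes tested, and the falls of Ndc80 and Cenpa were each lost without at least 1 library. All 6 had siKlf4 libraries entirely below the Scr libraries, against 19.8% of all genes. In SMCs 5 of 6 rose, against 15.6% of all genes tested, with a median of 0.78. Ndc80 was at 4.90, 4.51 and 3.56 TPM in Scr SMCs and 9.69, 9.41 and 9.92 TPM in siKlf4 SMCs (1.01 ± 0.13), and in PDGFR-β+ cells at 15.6, 19.7 and 14.1 TPM under Scr and 11.6, 12.1 and 11.9 TPM under siKlf4 (-0.43 ± 0.13, adjusted p = 0.0293). Nuf2, its partner in the complex that grips microtubules, rose by 0.88 ± 0.13 in SMCs and fell in PDGFR-β+ cells (-0.49 ± 0.10). Spc25 was at 14.5, 17.02 and 18.02 TPM in Scr SMCs and 20.5, 21.1 and 23.1 TPM in siKlf4 SMCs, the smallest rise of this complex (0.37 ± 0.11, adjusted p = 0.0380), and in PDGFR-β+ cells at 30.3, 35.7 and 29.2 TPM under Scr and 22.6, 23.9 and 21.2 TPM under siKlf4 (-0.47 ± 0.10). Cenpf was at 3.24, 3.41 and 3.62 TPM in Scr SMCs and 5.81, 6.04 and 7.31 TPM in siKlf4 SMCs (0.74 ± 0.12), and in PDGFR-β+ cells at 11.5, 12.4 and 9.63 TPM under Scr and 6.96, 7.80 and 6.19 TPM under siKlf4, the largest fall of the group (-0.61 ± 0.13, adjusted p = 0.00805). The kinetochore motor gene Cenpe rose in SMCs (0.82 ± 0.12) and missed the threshold in PDGFR-β+ cells. Cenpe in PDGFR-β+ cells was at 19.3, 26.1 and 18.6 TPM under Scr and 13.9, 17.97 and 15.97 TPM under siKlf4 (-0.39 ± 0.15, adjusted p = 0.0722). Cenpa was at 13.6, 20.5 and 10.8 TPM in Scr SMCs and 24.8, 21.6 and 19.4 TPM in siKlf4 SMCs, with overlap (0.56 ± 0.22, adjusted p = 0.0950), and in PDGFR-β+ cells at 34.8, 29.9 and 26.1 TPM under Scr and 23.9, 20.7 and 15.7 TPM under siKlf4, a fall in this centromeric histone variant (-0.58 ± 0.17, adjusted p = 0.0271).

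Spindle motors and microtubule proteins all rose in SMCs, 10 of 10, against 15.6% of all genes tested. Their log2 fold changes there ran from 0.60 to 1.08. In PDGFR-β+ cells 4 of 10 fell and 1 rose, against 15.3% and 25.3% of all genes. Kif2c was at 5.80, 7.20 and 5.24 TPM in Scr SMCs and 14.8, 12.1 and 14.7 TPM in siKlf4 SMCs, the largest rise of the group (1.08 ± 0.14), for a kinesin that takes microtubule ends apart, and in PDGFR-β+ cells at 17.02, 22.6 and 15.2 TPM under Scr and 14.4, 15.5 and 12.6 TPM under siKlf4 (-0.33 ± 0.15, adjusted p = 0.120). Kif4 was at 5.61, 5.87 and 4.64 TPM in Scr SMCs and 9.76, 7.13 and 9.32 TPM in siKlf4 SMCs, the smallest rise (0.60 ± 0.15, adjusted p = 0.0223), and in PDGFR-β+ cells at 13.4, 16.9 and 12.3 TPM under Scr and 10.9, 11.9 and 11.4 TPM under siKlf4 (-0.28 ± 0.12, adjusted p = 0.113). Gtse1, a microtubule-binding protein that also restrains p53, was the member that rose in both cell types. Gtse1 was at 44.9, 42.8 and 37.1 TPM in Scr SMCs and 72.6, 69.6 and 67.3 TPM in siKlf4 SMCs (0.74 ± 0.09, adjusted p = 0.00226). Gtse1 in PDGFR-β+ cells was at 50.4, 59.2 and 50.5 TPM under Scr and 92.1, 95.4 and 99.8 TPM under siKlf4 (0.84 ± 0.09, adjusted p = 0.000322). The Gtse1 groups were apart in both cell types, in the same direction. Tpx2, which activates Aurora A on the spindle, was at 19.7, 21.6 and 17.4 TPM in Scr SMCs and 39.5, 37.5 and 40.1 TPM in siKlf4 SMCs (0.97 ± 0.10), and in PDGFR-β+ cells at 46.8, 56.7 and 45.9 TPM under Scr and 36.1, 42.9 and 38.4 TPM under siKlf4 (-0.34 ± 0.11, adjusted p = 0.0401). Hmmr was at 12.3, 12.4 and 10.96 TPM in Scr SMCs and 23.3, 19.2 and 22.7 TPM in siKlf4 SMCs (0.82 ± 0.10), and in PDGFR-β+ cells at 27.7, 30.98 and 27.04 TPM under Scr and 20.7, 21.1 and 17.4 TPM under siKlf4, the largest fall of the group (-0.51 ± 0.10). Nusap1 and Ckap2l, both microtubule binding, rose in SMCs by 0.70 ± 0.12 and 0.71 ± 0.10 and fell in PDGFR-β+ cells, with log2 fold changes of -0.44 ± 0.09 and -0.46 ± 0.11. Kif11, the motor that pushes spindle poles apart, Tacc3, which stabilises spindle fibres, and Dlgap5 rose in SMCs by 1.02 ± 0.11, 0.90 ± 0.13 and 0.76 ± 0.13. In PDGFR-β+ cells their log2 fold changes were -0.14 ± 0.13, -0.09 ± 0.12 and -0.44 ± 0.16, with adjusted p = 0.441, 0.588 and 0.0624.

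The midzone and cytokinesis genes also rose without exception in SMCs, 7 of 7, against 15.6% of all genes tested. In PDGFR-β+ cells 3 of 7 fell, against 15.3% of all genes. Anln was at 34.1, 32.9 and 30.2 TPM in Scr SMCs and 63.8, 63.4 and 75.2 TPM in siKlf4 SMCs, the largest rise of the group (1.03 ± 0.09, adjusted p = 0.00101), for the scaffold of the contractile ring. Anln in PDGFR-β+ cells was at 123, 130.0 and 105 TPM under Scr and 118, 119 and 112 TPM under siKlf4, with overlap (-0.03 ± 0.09, adjusted p = 0.828), the highest levels of any of the 53 genes. The exchange factor Ect2, which starts ring assembly by activating RhoA, went in opposite directions. Ect2 was at 9.29, 9.73 and 7.68 TPM in Scr SMCs and 15.8, 13.2 and 19.8 TPM in siKlf4 SMCs (0.79 ± 0.16), and in PDGFR-β+ cells at 24.7, 21.2 and 17.99 TPM under Scr and 11.7, 12.7 and 11.3 TPM under siKlf4, the largest fall of the 53 genes in PDGFR-β+ cells (-0.78 ± 0.12, adjusted p = 0.00230). Kif20a was at 19.8, 20.4 and 16.5 TPM in Scr SMCs and 36.05, 33.98 and 35.6 TPM in siKlf4 SMCs (0.87 ± 0.10), and in PDGFR-β+ cells at 49.04, 57.3 and 41.1 TPM under Scr and 30.5, 30.8 and 28.3 TPM under siKlf4 (-0.69 ± 0.12, adjusted p = 0.00376), for the kinesin that carries the passenger complex to the midzone. Prc1 was at 18.7, 20.7 and 19.6 TPM in Scr SMCs and 27.4, 36.8 and 29.9 TPM in siKlf4 SMCs, the smallest rise of the group (0.64 ± 0.12), and in PDGFR-β+ cells at 54.5, 59.6 and 64.5 TPM under Scr and 41.4, 46.9 and 31.6 TPM under siKlf4, a fall in this bundler of midzone microtubules (-0.58 ± 0.14, adjusted p = 0.0159). The 2 centralspindlin genes rose in SMCs, Kif23 by 0.68 ± 0.12 and Racgap1 by 0.72 ± 0.14. Kif23 in PDGFR-β+ cells was at 30.8, 32.5 and 18.97 TPM under Scr and 26.7, 32.96 and 26.1 TPM under siKlf4, with overlap (0.09 ± 0.20, adjusted p = 0.761; -0.02 after median-ratio and -0.0034 after quantile scaling), and Racgap1 had a log2 fold change of -0.31 ± 0.11 (adjusted p = 0.0604). Kif20b rose in SMCs by 0.92 ± 0.12 and did not pass in PDGFR-β+ cells (-0.03 ± 0.12, adjusted p = 0.858).

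Chromosome condensation and structure genes had the lowest median of the role groups in SMCs, 0.62. There 6 of 7 were higher, against 15.6% of all genes tested. In PDGFR-β+ cells 2 of 7 fell, against 15.3% of all genes, too few to be read as a trait of this group. Mki67 was at 11.7, 12.5 and 11.6 TPM in Scr SMCs and 28.6, 25.5 and 31.5 TPM in siKlf4 SMCs (1.19 ± 0.10, adjusted p = 0.000928), for the proliferation antigen Ki-67 that coats mitotic chromosomes. Mki67 in PDGFR-β+ cells was at 44.8, 54.95 and 37.7 TPM under Scr and 28.1, 32.8 and 26.6 TPM under siKlf4, a fall with no overlap (-0.62 ± 0.14, adjusted p = 0.0120). The condensin subunit gene Smc4 stood at the other end of the group in SMCs. Smc4 was at 43.5, 47.2 and 58.5 TPM in Scr SMCs and 55.3, 50.4 and 60.95 TPM in siKlf4 SMCs, with overlap (0.16 ± 0.13, adjusted p = 0.364), and in PDGFR-β+ cells at 58.4, 59.3 and 59.1 TPM under Scr and 43.5, 46.4 and 42.8 TPM under siKlf4, a fall (-0.41 ± 0.07, adjusted p = 0.00277). Smc2 encodes its partner. Smc2 was at 13.1, 15.04 and 15.1 TPM in Scr SMCs and 24.04, 22.9 and 25.3 TPM in siKlf4 SMCs (0.70 ± 0.09), and in PDGFR-β+ cells at 35.2, 37.1 and 31.9 TPM under Scr and 31.1, 36.4 and 30.5 TPM under siKlf4, with overlap (-0.09 ± 0.10, adjusted p = 0.504). The condensin I genes Ncaph and Ncapd2 rose in SMCs by 0.88 ± 0.11 and 0.62 ± 0.10, Top2a, which untangles sister DNA, by 0.46 ± 0.09, and Cdca2, which recruits a phosphatase at mitotic exit, by 0.61 ± 0.18. None of these 4 passed in PDGFR-β+ cells, where their log2 fold changes ran from -0.20 ± 0.12 for Top2a to -0.11 ± 0.11 for Ncaph.

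**Figure D2:**
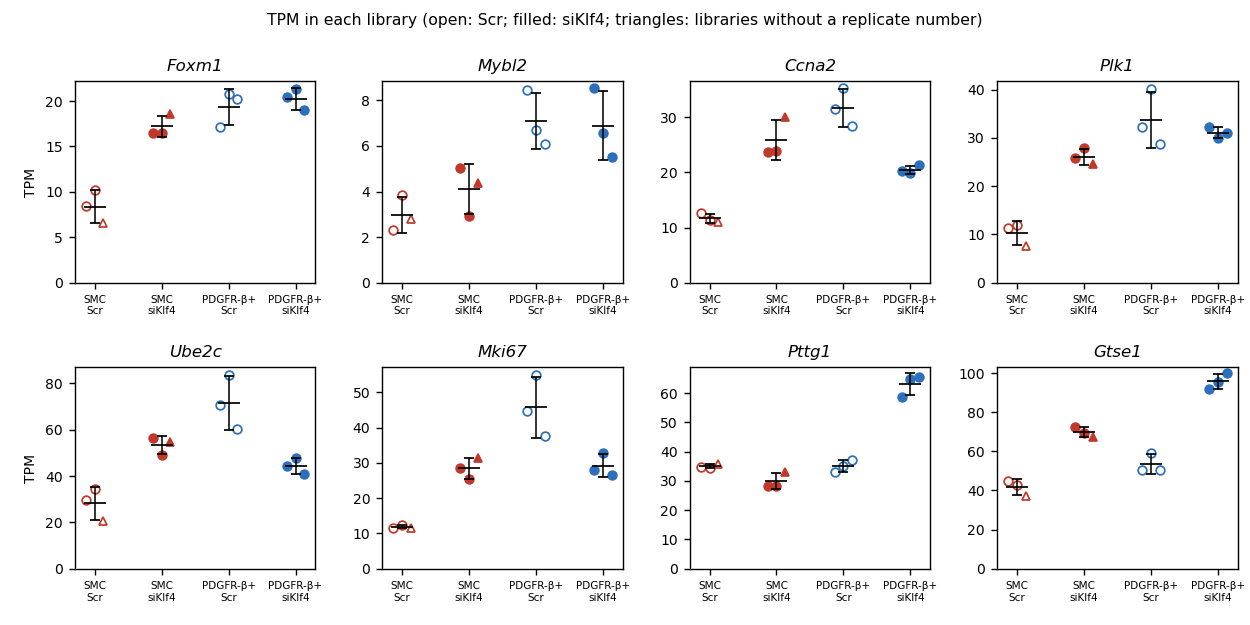
TPM of 8 members in each of the 12 libraries (points; open for Scr, filled for siKlf4, triangles for the SMC libraries without a replicate number), with the mean and SD of each group (n = 3). Foxm1 and Plk1 are higher in all siKlf4 SMC libraries and overlap in PDGFR-β+ cells, Ccna2, Ube2c and Mki67 move in opposite directions, and Pttg1 and Gtse1 are higher in all siKlf4 PDGFR-β+ libraries.

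Set side by side, the kinases and passenger complex had the highest median in SMCs and the kinetochore genes the lowest in PDGFR-β+ cells. In SMCs the medians of the 9 role groups were 1.05 for kinases and passenger complex, 0.82 for the checkpoint and for the anaphase switch, 0.79 for the spindle and for cytokinesis, 0.78 for mitotic entry and for the kinetochore, 0.67 for the transcription factors and 0.62 for condensation. The summed TPM of the kinases and passenger complex reached 2.24-fold of its Scr sum, and that of the condensation genes 1.47-fold. In PDGFR-β+ cells the medians were -0.48 for the kinetochore, -0.44 for mitotic entry, -0.35 for the kinases, -0.33 for the spindle, -0.31 for cytokinesis and for the anaphase switch, -0.26 for the checkpoint, -0.18 for condensation and 0.01 for the transcription factors. The ranges of all role groups overlapped in SMCs. In PDGFR-β+ cells the kinetochore values, from -0.61 to -0.39, lay below the checkpoint values, from -0.36 to -0.05, while the transcription factors, from -0.04 to 0.06, lay above these and above the kinases and the condensation genes. With 2 to 10 genes in each group the order is given as a description. Across the 53 genes the log2 fold changes in SMCs and in PDGFR-β+ cells had Pearson's r = -0.32 and Spearman's rho = -0.17, a description over genes from the same libraries.

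The size of the siKlf4 effect was compared between the cell types in one limma model of all 12 libraries, as an interaction. Knockdown depth differed between them, with 21.9% of the Scr mean of Klf4 left in SMCs and 9.16% in PDGFR-β+ cells. Scr levels of the members, source of the cells, reporter and Cre alleles and table differed too. The parts of these in the interaction cannot be told apart. For 48 of the 53 genes the effect was higher in SMCs and for 1, Pttg1, it was lower, against 14.5% and 18.5% of all 13032 genes tested, with a median difference of 1.16 against -0.08 over all genes. Median-ratio scaling left the members at 48 and 1, but turned the split over all genes from 1886 higher and 2411 lower into 2412 and 2000. Kif23, Mybl2, Cdk1 and Gtse1 did not pass, and for Gtse1 the difference was -0.10 ± 0.12 (adjusted p = 0.573). Foxm1 differed by 0.91 ± 0.19 (adjusted p = 0.00341). In the other role groups the largest differences were 1.89 ± 0.28 for Birc5, 1.81 ± 0.18 for Mki67, 1.68 ± 0.15 for Ccna2, 1.59 ± 0.23 for Ube2c, 1.57 ± 0.21 for Ect2, 1.44 ± 0.18 for Ndc80, 1.41 ± 0.22 for Kif2c and 1.40 ± 0.19 for Bub1, each past the threshold, with adjusted p between 1.9e-05 and 0.000548. Pttg1 differed by -1.05 ± 0.11 (adjusted p = 5e-05). Of the 49 differences, 48 held when any single library was left out, and that of Cdc25b (0.46 ± 0.15, adjusted p = 0.0343) did not. It passed without SMC Scr replicate 3, the unnumbered SMC Scr library, SMC siKlf4 replicate 2 or PDGFR-β+ Scr replicate 3, and without any one of the other libraries its adjusted p reached at most 0.0779.

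The 19 members that rose in SMCs and fell in PDGFR-β+ cells compare with 2.35% of all 13032 genes tested in both. They were Ccna2, Cdc25c, Cdca3, Aurka, Nek2, Ttk, Ube2c, Cenpf, Nuf2, Ndc80, Spc25, Tpx2, Nusap1, Hmmr, Ckap2l, Kif20a, Prc1, Ect2 and Mki67. They made up 4 of the 6 kinetochore genes, 3 of the 7 mitotic entry genes, 3 of the 7 cytokinesis genes and 4 of the 10 spindle genes. In the other groups they were 2 of the 6 kinase and passenger genes, 1 of the 4 checkpoint genes and 1 of the 4 anaphase switch genes. They were also 1 of the 7 condensation genes and 0 of the 2 transcription factors. A further 26 rose in SMCs and did not pass in PDGFR-β+ cells while the difference between the cell types passed, and 3, Cdc25b, Cenpa and Smc4, fell in PDGFR-β+ cells without passing in SMCs. Of the 22 falls in PDGFR-β+ cells, the 12 of Ccna2, Cenpf, Ckap2l, Ect2, Hmmr, Kif20a, Mki67, Nuf2, Nusap1, Smc4, Spc25 and Ube2c held when any single library was left out, whereas those of Aurka, Cdc25b, Cdc25c, Cdca3, Cenpa, Ndc80, Nek2, Prc1, Tpx2 and Ttk were each lost without at least 1 library. Of the 47 rises in SMCs, 39 held, and those of Aurkb, Cdc25c, Cdca2, Cdca3, Espl1, Kif4, Mad2l1 and Spc25 were each lost without at least 1 library.

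Without the knockdown the cultures already differed. In Scr libraries 51 of the 53 genes had a lower level in SMCs and 0 a higher one than in PDGFR-β+ cells, against 23.3% and 24.4% of all 13800 genes tested, with a median log2 difference (SMCs minus PDGFR-β+ cells) of -1.17 against 0.01 over all genes. The 2 tables were compared as deposited, with TPM scaled within each library. Cell type, source of the cells, reporter and Cre alleles and table differ together here. By the study's methods the growth medium before transfection differed too. Their parts in this difference cannot be told apart. Anln (-1.84 ± 0.10), Mki67 (-1.84 ± 0.14), Bub1 (-1.74 ± 0.15), Ndc80 (-1.71 ± 0.16) and Plk1 (-1.63 ± 0.19) differed most. Foxm1 had a difference of -1.13 ± 0.16 (adjusted p = 0.000853), with no overlap. Pttg1 (-0.0013 ± 0.08, adjusted p = 0.992) and Smc4 (-0.25 ± 0.11, adjusted p = 0.105) were the members that did not pass, and the Pttg1 values of 34.5 to 35.8 TPM in Scr SMCs lay inside the 33.0 to 37.1 TPM of Scr PDGFR-β+ cells. Gtse1 (-0.35 ± 0.11, adjusted p = 0.0277) and Ncapd2 (-0.47 ± 0.16, adjusted p = 0.0384) passed, but not in every fit that left out a library. Gtse1 did not pass without SMC Scr replicate 3, the unnumbered SMC Scr library or PDGFR-β+ Scr replicate 2, with adjusted p up to 0.0811. Ncapd2 did not pass without any one of the SMC Scr libraries, or without PDGFR-β+ Scr replicate 1 or 2, with adjusted p up to 0.104.

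With siKlf4 the levels in the cell types came close to each other. The mean TPM in PDGFR-β+ cells was a median of 2.40 times that in SMCs under Scr, above 1 for all 53 genes and up to 3.86 times, and a median of 1.05 times under siKlf4, above 1 for 33 genes, with a range of 0.73 to 2.10 times. The summed TPM of the 53 genes was 723, 787 and 671 in Scr SMCs and 1280.0, 1185 and 1268 in siKlf4 SMCs. In PDGFR-β+ cells it was 1604, 1852 and 1425 with Scr and 1363, 1441 and 1300.0 with siKlf4, where the lowest Scr library lay below the highest siKlf4 library. All siKlf4 SMC libraries were above all Scr SMC libraries and below all siKlf4 PDGFR-β+ libraries. At the level of single genes, Pttg1 had the largest ratio of the 53 under siKlf4, 2.10 times, and the smallest under Scr, 1.00 times.

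**Figure D3:**
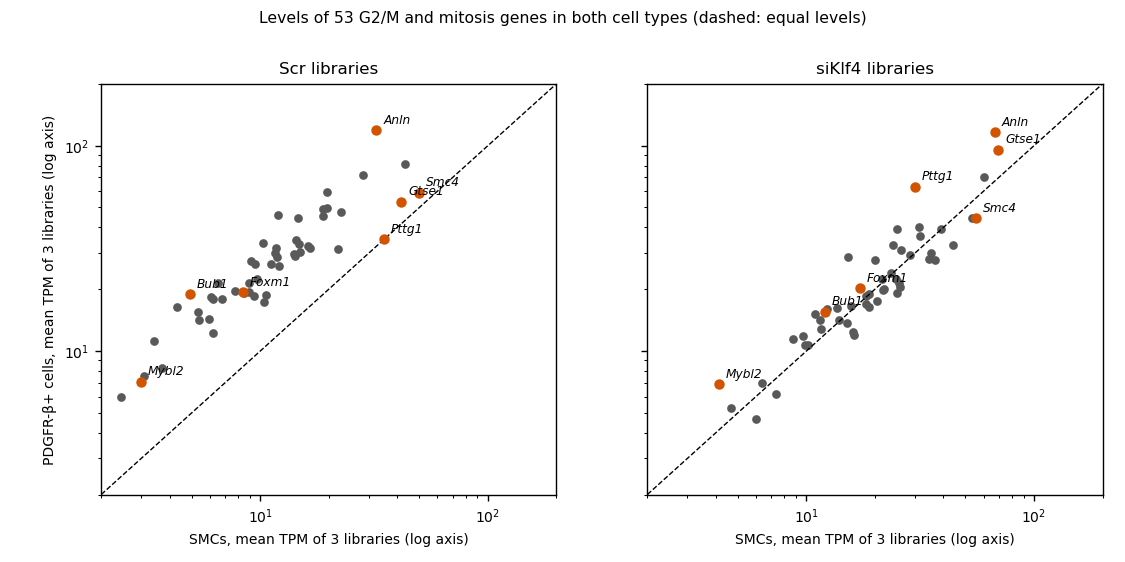
Mean TPM (n = 3 libraries, log axes) of each of the 53 genes in SMCs (x axis) and PDGFR-β+ cells (y axis), under Scr (left) and siKlf4 (right), with the dashed line at equal levels and 7 genes named. Under Scr every point lies on or above the line, and under siKlf4 the points lie around it, with 33 of 53 above.

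**Figure D4:**
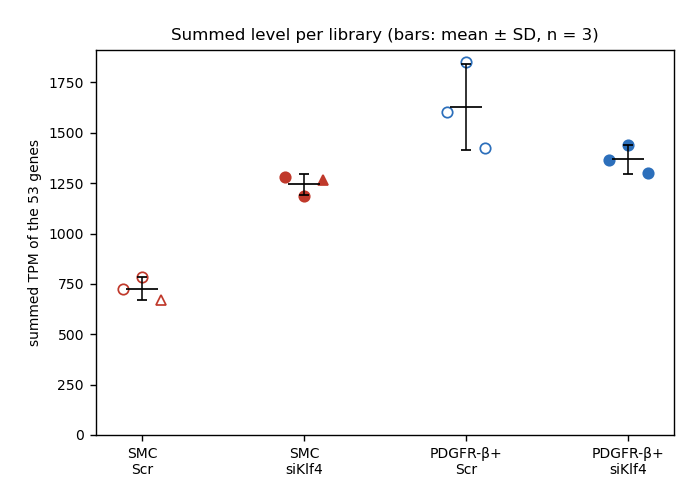
Summed TPM of the 53 genes in each library (points; open for Scr, filled for siKlf4, triangles for libraries without a replicate number), with the mean and SD of each group (n = 3). The SMC sums go from 671 to 787 TPM up to 1185 to 1280.0 TPM, and the PDGFR-β+ sums overlap between treatments.

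Other genes of the cell cycle were read from lists drawn up for this comparison. Their counts are read against the shares of all genes tested, which were 15.6% (rises) and 12.9% (falls) in SMCs, and 25.3% and 15.3% in PDGFR-β+ cells. Of 48 further mitotic genes, 34 (70.8%) rose and 0 fell in SMCs (median 0.71). In PDGFR-β+ cells 6 of them (12.5%) fell, a share below that of all genes, and 1 (2.08%) rose (median -0.11). The largest rise in SMCs was that of Depdc1a. Depdc1a was at 4.55, 4.77 and 4.30 TPM in Scr SMCs and 13.4, 10.7 and 12.6 TPM in siKlf4 SMCs (1.25 ± 0.12, adjusted p = 0.00104). Cdkn3, a phosphatase acting on CDKs, had the largest fall in PDGFR-β+ cells. Cdkn3 in PDGFR-β+ cells was at 15.5, 17.2 and 14.3 TPM under Scr and 4.82, 6.36 and 6.49 TPM under siKlf4 (-1.28 ± 0.13, adjusted p = 0.000331), whereas in SMCs it did not pass (0.24 ± 0.18, adjusted p = 0.355). The one rise in PDGFR-β+ cells was that of Cenpw, a centromere protein (0.47 ± 0.11, adjusted p = 0.0105).

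Core subunits and activators of the anaphase-promoting complex, whose transcripts are not strongly periodic, were mixed: of 15 genes, 2 (13.3%) rose and 3 (20.0%) fell in SMCs, near the shares of all genes, and 2 (13.3%) rose and 1 (6.67%) fell in PDGFR-β+ cells, with medians of 0.03 and 0.07. Fzr1, the activator used after anaphase, rose most in SMCs (0.34 ± 0.08) and Cdc23 fell most (-0.52 ± 0.12), although Cdc23 overlaps Kif20a on the opposite strand. In PDGFR-β+ cells Cdc27 rose most (0.44 ± 0.07) and Cdc16 fell (-0.32 ± 0.07). Of 17 MuvB, pocket protein and E2F genes tested, 5 (29.4%) rose in SMCs, a share above that of all genes. There 1 (5.88%) fell, a share below it. In PDGFR-β+ cells 4 (23.5%) rose and 2 (11.8%) fell, near the shares of all genes. The largest rise in SMCs was that of E2f7 (0.90 ± 0.24), and Lin52, a MuvB subunit, fell in SMCs (-0.63 ± 0.12) and rose in PDGFR-β+ cells (0.50 ± 0.10). In PDGFR-β+ cells E2f5 rose most (0.81 ± 0.08) and Rb1, the retinoblastoma gene, fell most (-0.95 ± 0.10).

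Of 40 S phase genes, 34 (85%) rose and 0 fell in SMCs (median 0.60). In PDGFR-β+ cells 10 (25%) rose, the share of all genes there, and 3 (7.5%) fell (median 0.16). Mcm5, a subunit of the replicative helicase, rose most in SMCs. Mcm5 was at 7.33, 7.91 and 5.66 TPM in Scr SMCs and 23.5, 20.8 and 20.8 TPM in siKlf4 SMCs (1.52 ± 0.13, adjusted p = 0.000997). Its relative Mcm4 rose most in PDGFR-β+ cells. Mcm4 in PDGFR-β+ cells was at 44.9, 58.3 and 41.7 TPM under Scr and 100.3, 109.9 and 103 TPM under siKlf4 (1.11 ± 0.12, adjusted p = 0.000493). Rrm2, a subunit of the enzyme that makes deoxynucleotides, fell there. Rrm2 in PDGFR-β+ cells was at 67.8, 99.5 and 62.3 TPM under Scr and 37.98, 46.1 and 40.1 TPM under siKlf4 (-0.84 ± 0.17, adjusted p = 0.00719). Of 7 CDK inhibitor genes, 1 (14.3%) rose and 2 (28.6%) fell in SMCs, and 5 (71.4%) rose and 0 fell in PDGFR-β+ cells. Cdkn1a (p21) rose in both, by 0.40 ± 0.07 in SMCs and 0.43 ± 0.07 in PDGFR-β+ cells. Cdkn1c (p57) moved in opposite directions: it was at 94.8, 74.3 and 117 TPM in Scr SMCs and 44.8, 47.2 and 71.4 TPM in siKlf4 SMCs (-0.80 ± 0.22, adjusted p = 0.0322), and in PDGFR-β+ cells at 2.13, 1.83 and 2.63 TPM under Scr and 8.12, 8.90 and 8.12 TPM under siKlf4 (1.56 ± 0.13, adjusted p = 0.000127).

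**Figure D5:**
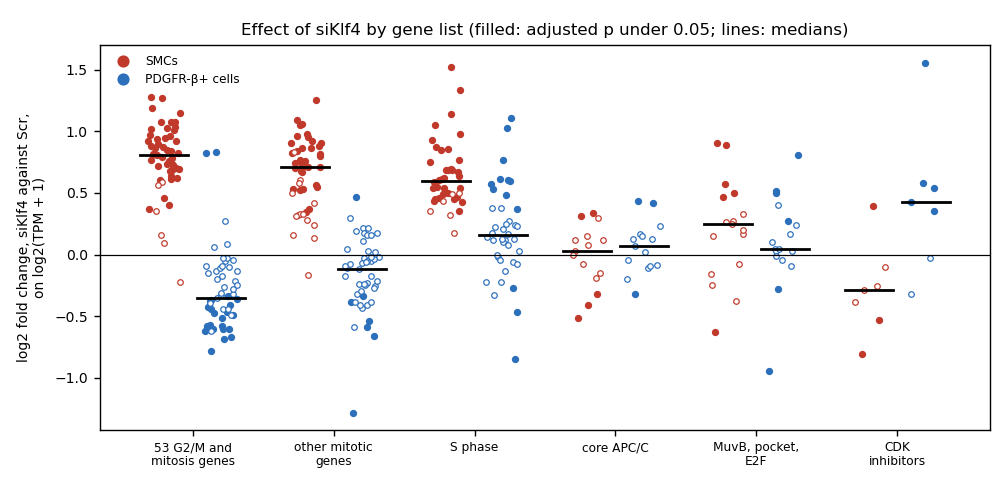
Log2 fold change of siKlf4 against Scr on log2(TPM + 1) for each tested gene of 6 lists (x axis) in SMCs (red) and PDGFR-β+ cells (blue); filled points passed the test at an adjusted p under 0.05 and lines are medians. The medians of the 53 genes are 0.80 and -0.36, those of the S phase genes 0.60 and 0.16, and those of the core anaphase-promoting complex 0.03 and 0.07.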

How the data were processed

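RNA-seq was made from 12 libraries, with 3 per group (Scr or siKlf4, SMCs or PDGFR-β+ cells). According to the submitters' processing notes and the study's methods, reads were trimmed and mapped to mm10 by HISAT2 with GENCODE annotation, and StringTie with ballgown gave the TPM values that the authors deposited, 1 table per cell type, replicates not pooled. By the study's methods the libraries kept strand through dUTP marking. Versions of HISAT2, StringTie and ballgown, and whether quantification used strand, are not given in the sources used here. The study's DESeq2 tests used counts, which were not used here. TPM keeps no depth, so precision rests on the 3 libraries of a group, and a rise of abundant genes lowers the others. All per-sample columns were used. One Scr and 1 siKlf4 column of the SMC table carry no replicate number and were used as members of their groups.

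Values were analysed as log2(TPM + 1), which understates changes of low genes, keeping genes whose mean reached 1 TPM, with limma 3.58.1 in R 4.3.3 (lmFit, eBayes with a trend, two-sided, Benjamini-Hochberg adjustment over all genes tested, threshold 0.05). A separate fit was made per cell type, an interaction over the 12 libraries tested the difference between them, and Scr libraries were compared between the tables. The procedure was tested on simulated data. The members and lists were chosen with earlier results of these data known. Values in every library were to be given for Foxm1, Mybl2, Klf4, the extremes of each role group and members called in opposite directions or for the difference. For some of the latter only fitted values are shown. Promoters were to be printed for Foxm1 and for the largest and smallest log2 fold change in SMCs. No window matched Foxm1, and Ccnb1, Cdc20 and Gtse1 were added after their values were seen. Positions are from GENCODE for GRCm38, where 45 of the 53 identifiers had the same version, and promoters from RefSeq (GRCm38.p6). Alternatives were a pseudocount of 0.1, no filter or a minimum of 5 TPM, median-ratio or quantile scaling, eBayes without a trend, pooled or separate fits, the 4 numbered SMC libraries alone, a covariate for columns without a number, a replicate block and each library left out.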

Additional observations from a re-analysis of the deposited data

Results flagged for a closer look

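By the interaction, the change with siKlf4 differed between the SMC and PDGFR-β+ libraries for 49 members. It was higher in SMCs for 48 and lower for 1. Knockdown depth, Scr levels, source of the cells, alleles and table differ together with cell type, and their parts cannot be told apart. By role group the members with the largest difference of log2 fold changes (SMCs minus PDGFR-β+ cells) were Foxm1 at 0.91, Ccna2 at 1.68, Birc5 at 1.89, Bub1 at 1.40, Ube2c at 1.59, Ndc80 at 1.44, Kif2c at 1.41, Ect2 at 1.57 and Mki67 at 1.81. Pttg1, which encodes securin, was the member with the opposite sign, at -1.05.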

How the results depend on the processing

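The number of members that rose in SMCs ran from 34 to 48 over all alternatives, the difference between cell types from 45 to 49 higher in SMCs and 1 lower, and the lower levels in Scr SMCs from 49 to 51 members. The number that fell in SMCs was 1, Pttg1, in place of 0 after quantile scaling, in 1 fit over the 12 libraries, with the numbered libraries only, or with a term for column naming, and ran from 0 to 1 when single libraries were left out. The number that fell in PDGFR-β+ cells was 14 without a filter on low values and 34 after median-ratio scaling, and ran from 13 to 29 over single libraries left out. The cause of these changes was not tested. The direction of members near 0 turned. In PDGFR-β+ cells Foxm1 became -0.041 and -0.0449 and Kif23 -0.0199 and -0.0034 after median-ratio and quantile scaling. With single libraries left out, the log2 fold change ran from -0.018 to 0.1153 for Foxm1, -0.1889 to 0.0825 for Mybl2, -0.2054 to 0.0289 for Plk1, -0.1862 to 0.0808 for Bub1b, -0.2803 to 0.0055 for Espl1, -0.1865 to 0.0364 for Tacc3, -0.1228 to 0.0272 for Kif20b, -0.1494 to 0.2242 for Kif23 and -0.1185 to 0.0364 for Anln, and the Scr difference of Pttg1 ran from -0.0436 to 0.0378. The labels tie no replicate number to a shared batch, so none was taken as a pairing. Deviations of same-numbered libraries correlated at 0.073, -0.016 and 0.004 in PDGFR-β+ cells and at 0.185 and 0.199 in the 2 numbered SMC pairs, the 2 SMC libraries without a number correlated at 0.361 with each other, and all other SMC pairs at -0.217 to 0.05, so that each SMC library correlated best with its counterpart, a hint from the data and not from the design. With the number as a replicate block, over the 4 numbered libraries in SMCs, 34 members rose and 0 fell in SMCs, 2 rose and 30 fell in PDGFR-β+ cells, and the difference passed for 46 and 1. No alternative test on counts could be run on TPM, and levels were set across 2 tables processed separately by the authors.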
